A study of Mus musculus with 4 samples.

Results

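The constitutive proteasome genes were measured in H3f3b KO and WT mouse embryonic fibroblasts (MEFs), the connective tissue cells that grow out when an embryo is dissociated and plated. The members were all probes whose gene symbol in the platform annotation starts with Psma, Psmb, Psmc or Psmd and a number, with the immunoproteasome genes Psmb8, Psmb9 and Psmb10 left out. The rule found 51 probes of 34 genes among 25697 probes on the array. It used only gene names and no measured value. Of the 34 genes, 14 encode the core particle and 19 the regulatory particle or its assembly chaperones. The remaining gene, Psmc3ip, carries a proteasome-like symbol but encodes a partner of the meiotic recombinases, and its values are given apart.

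The proteasome is the barrel-shaped protease that degrades proteins tagged with ubiquitin. Its core particle is a stack of alpha and beta rings, with the proteolytic sites of the beta subunits facing the inside. The regulatory particle caps the barrel: its base, with a ring of ATPases, unfolds the substrate and feeds it in, and its lid strips off the ubiquitin. The finished particle holds its subunits in fixed proportions, and fibroblasts, like other dividing cells, express all of the constitutive ones.

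The KO group held 2 MEF lines (KO1 and KO2, H3f3b -/-) and the WT group 2 lines (WT1 and WT2, H3f3b WT/WT), all from littermate embryos of a C57BL6J background taken at embryonic day 12.5. The null allele came from a floxed H3f3b allele that Zp3-Cre, a transgene active in the oocyte, had deleted in the germ line, so the gene was missing from every cell of a KO embryo and not from fibroblasts alone. Lines of both genotypes carried the stable pBabe puro vector and an intact H3f3a, the other gene for histone H3.3. A single array was run per line, so the spread within a genotype is that between 2 lines, and the sources used here do not say how many embryos went into a line.

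RNA levels were read on MouseRef-8 bead arrays (Illumina), which give a signal and a detection p-value per probe, the latter small where a probe is brighter than the negative controls. The KO arrays were brighter as deposited, with mean signals of 381 and 382 against 291 and 294 in WT. All arrays were therefore brought to 1 distribution, and levels are given as normalized log2 values. H3f3b, the targeted gene, had signals of 97.3 and 98.7 in KO, which were not called detected, and of 1736 and 1686 in WT. All 11 fibroblast markers with a probe were measured above background, and 0 of 3 erythroid markers were detected. Of the 11, 10 were lower in KO (47.6% of all genes were), with a median of -0.28 log2 units. These include Vim, Pdgfrb and Thy1 at -0.0011, -0.027 and -0.056. Both KO arrays were under both WT arrays in 5 of 11 (17.1% of all genes). In limma 2 were lower at an unadjusted p under 0.05 (3.54% of all genes) and 0 after adjustment. Of 10 macrophage markers tested, all 10 were higher in KO, where 52.4% of all genes were. In limma 7 of these markers had an unadjusted p under 0.05 (4.59% of all genes were higher at it) and 0 after adjustment. Their summed normalized signal, with the undetected Ptprc included, was 20335 and 15697 in KO against 13573 and 11608 in WT. Ptprc, the pan-leukocyte surface phosphatase, was detected on no array, and 5 of 6 endothelial markers were not detected either. The remaining endothelial marker, Emcn, a sialomucin of the vessel wall, had 6.2 and 7.08 log2 units in KO against 5.39 and 4.58 in WT, the most positive difference of all 8047 genes tested (1.66 ± 0.36, unadjusted p = 0.00279, adjusted p = 0.542 in limma). Macrophages also express the proteasome, and the part of other cell types in the values below was not tested. In RNA from whole cultures, fewer cells of a type and less RNA per cell cannot be told apart.

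Some promoters of the family hold the core of the antioxidant response element, the DNA site of the transcription factor Nfe2l1 (also called Nrf1), which raises the transcription of proteasome genes when proteasome activity is short. The core TGACNNNGC was searched on both strands from 250 bases before to 50 after the start of each gene, in RefSeq sequences of GRCm38.p6. It was found in 5 of 28 member genes with a promoter sequence (17.9%), against 14.0% of all 27025 genes in that table. The matches are shown because they include Psmb5, the member with the smallest p-value below. The capitals mark the core, read 5′ to 3′ on the strand that holds it:
Psmb5 (chr14:54618025-54618051, minus strand): gtgaagttgTGACGTCGCggcgttgcc
Psmb6 (chr11:70525339-70525365, plus strand): taaagagagTGACGGAGCgctttacga
Psmc6 (chr14:45329588-45329614, minus strand): agcaatgccTGACTTAGCtactggctg
Psmd9 (chr5:123228150-123228176, plus strand): tctagccggTGACCCCGCccacttcca
Psmd12 (chr11:107479278-107479298, minus strand): gggcaaatgTGACACAGCaga
The cores of Psmb6, Psmd9 and Psmb5 began 9, 31 and 47 bases before the start of the gene on its own strand. Those of Psmc6 and Psmd12 lay on the opposite strand near the far end of the window, with their first base in the window at 227 and 247 bases before the start. A match is a description of the letters and does not show that the site is bound.

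The comparison asked whether transcripts of the proteasome differed between KO and WT lines. No member passed the test: 0 of 29 subunit and chaperone genes measured above background had an adjusted p under 0.05, where 0.0124% of all 8047 genes tested did, which was H3f3b alone (0.00866% of all probes tested). At an unadjusted p under 0.05 there were likewise 0 of 29, against 8.13% of all genes (4.59% higher and 3.54% lower in KO). The differences ran from -0.36 log2 units (Psmb5) to 0.21 (Psmd8), and 83.6% of all genes tested lay within 0.36 of zero. Of the 29 genes, 13 were above and 16 below 0 in KO, where 52.4% of all genes were above and 47.6% below. The 95% intervals of the differences reached no further than -0.79 and 0.70. In the normalized values a 2-fold change thus lay outside the interval of each of the 29 genes, and a 1.5-fold change outside that of 17. A constant of 16 was added to each signal before log2, which shrinks the differences of dim probes. For the dimmest members, such as Psmd9, a 2-fold change of the transcript can therefore lie inside the interval. The p-values rest on 2 arrays per genotype, for which an exact permutation test of a single gene cannot go below 0.333, and limma reaches smaller values by borrowing the spread of all probes.

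**Figure D1:**
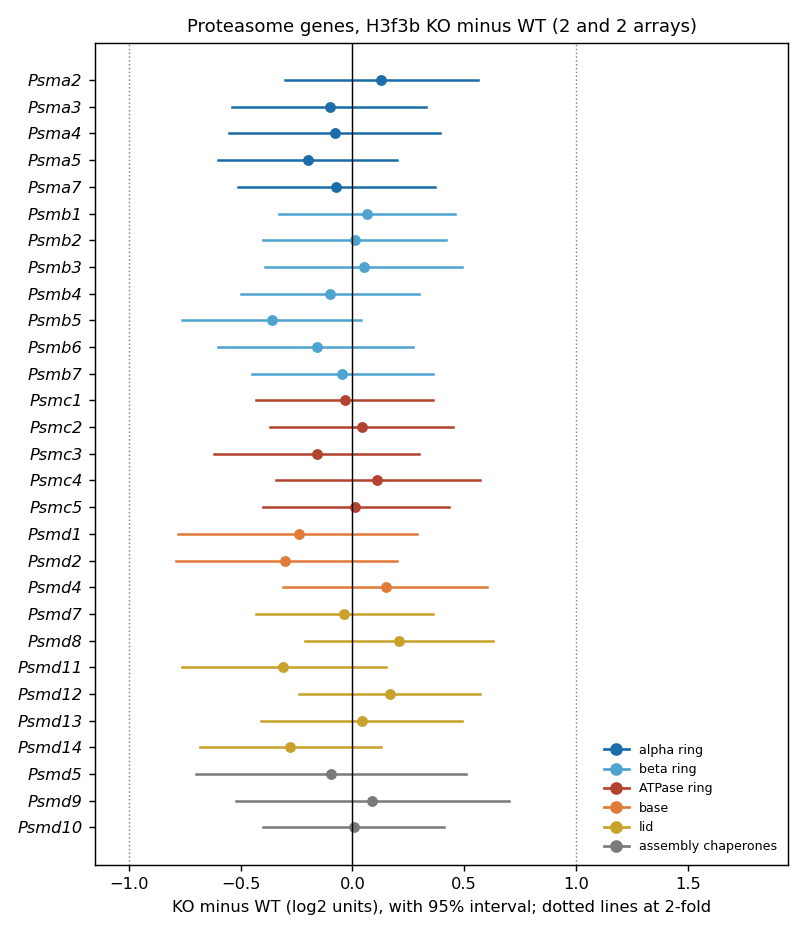
Difference between KO and WT (log2 units, x axis) for the 29 proteasome genes measured above background (y axis), as points with 95% intervals from limma over 2 KO and 2 WT arrays, coloured by place in the complex. Points lie between -0.36 and 0.21, the intervals of all 29 genes span 0, and none reaches the dotted lines at 2-fold in the normalized values.

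The core and regulatory particles had medians near that of all genes, which was 0.014. The median difference was -0.075 log2 units over 12 core particle genes and 0.0077 over 17 regulatory particle genes. In the core particle 4 genes were above 0 and 8 below, and in the regulatory particle 9 were above and 8 below. Both KO arrays lay above both WT arrays in 1 core and 2 regulatory particle genes (3 of 29, against 21.0% of all genes) and below them in 3 and 3 (6 of 29, against 17.1%). In the other 20 genes the genotypes overlapped. With median scaling of the arrays in place of quantile normalization, 26 genes were above 0 and 3 below, but the median of all genes then stood at 0.28, and 14 of 29 members were under it. In the values scaled by the authors 16 genes were above 0 and 13 below.

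The core and regulatory particles were also set side by side on each array. Relative to each gene's own mean over the 4 arrays, core particle genes had a median of -0.041 log2 units in KO1, -0.027 in KO2, -0.057 in WT1 and 0.11 in WT2. Regulatory particle genes had medians of 0.0057, 0.0061, -0.02 and 0.087 in the same order. Both particles were thus highest in WT2, and the other 3 arrays lay near each other. The core median minus the regulatory median was -0.046 in KO1, -0.033 in KO2, -0.037 in WT1 and 0.022 in WT2. Single genes on WT2 ran from -0.01 to 0.24 in the core and from -0.13 to 0.41 in the regulatory particle.

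**Figure D2:**
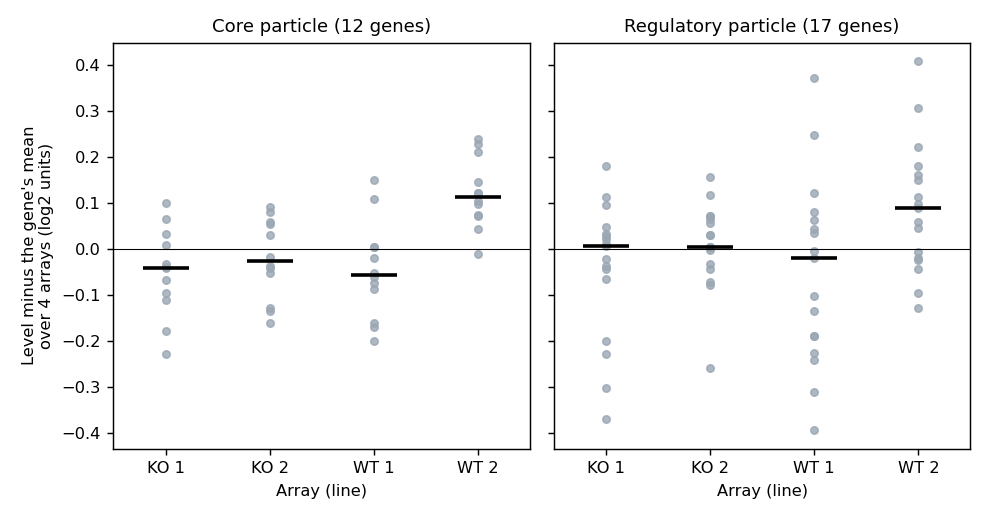
Level of each proteasome gene on each array minus its mean over the 4 arrays (y axis, log2 units), for 12 core particle genes (left) and 17 regulatory particle genes (right). Points are genes and black bars medians; WT2 has the highest median in both panels, at 0.11 and 0.087.

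In most members, as in most genes tested, the gap between the WT lines was larger than the genotype difference. A gap between single arrays varies more than a difference between group means, so it is often larger without any genotype effect. The gaps and differences below therefore cannot show whether lines varied more than genotypes. The median gap between WT1 and WT2 was 0.17 log2 units over the 29 genes, and that between KO1 and KO2 was 0.10. The median size of the KO minus WT difference was 0.10. Over all genes tested these medians were 0.24, 0.17 and 0.16. The gap between the WT arrays was larger than the difference between genotypes in 19 of 29 genes, where 61.9% of all genes were so. WT2 was above WT1 in 23 of 29 genes, where 4021 of all 8047 genes were, and was the highest array in 16 of 29, where 29.0% of all genes were. Without WT2, 15 of 29 genes were below 0, and the medians were 0.0074 for the core and -0.012 for the regulatory particle. Without WT1, 23 of 29 were below 0 (48.2% of all genes), with medians of -0.16 and -0.08. No member passed the test in either case.

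The alpha ring forms the gate through which substrates enter the core. Of its 7 genes with probes, 5 were measured above background, and 1 was above and 4 were below 0. Psma5 had 11.96 log2 units in KO1, 11.84 in KO2, 12.11 in WT1 and 12.10 in WT2. Both KO arrays were under both WT arrays, but by little more than the gap between the KO lines, and the difference of -0.20 ± 0.17 (SE, n = 2 and 2 arrays) had an adjusted p of 0.850. Psma2 had 13.01 and 12.94 in KO against 12.71 and 12.98 in WT, a difference of 0.13 ± 0.18 (adjusted p = 0.930). Here WT1 alone was low, and without it the difference was -0.0051. Psma3, Psma4 and Psma7 had differences of -0.10, -0.076 and -0.074, each with overlapping genotypes. The other tested probe for Psma7 gave -0.15, with both KO arrays under both WT arrays.

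The beta ring carries the proteolytic sites, and all 7 of its genes were measured. Psmb5, the chymotrypsin-like site, had 8.61 log2 units in KO1, 8.71 in KO2, 8.99 in WT1 and 9.05 in WT2. The genotypes did not overlap, and the gap between them was wider than that within either. Its difference of -0.36 ± 0.17 (KO at 0.778 of WT, 95% interval -0.76 to 0.039) was the most negative of the family and had its smallest p-value, 0.0700 unadjusted and 0.671 adjusted in limma. Leaving out single arrays gave values from -0.41 to -0.31. An unadjusted p under 0.05 was reached by Psmb5 without background correction, with an offset of 50, in the values scaled by the authors, without the detection filter and with a variance trend. Its adjusted p in limma stayed at 0.432 or more in these.

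Psmb6, the caspase-like site, had 10.97 and 11.03 in KO against 11.02 and 11.31 in WT, with overlapping genotypes and a difference of -0.16 ± 0.18 (adjusted p = 0.899). Psmb7, the trypsin-like site, had 11.44 and 11.59 in KO against 11.54 and 11.58 in WT. KO1 alone was low, and the difference was -0.045 ± 0.17 (adjusted p = 0.978). Its other probes gave -0.10 and 0.10, so the sign was not shared. The structural subunits Psmb1, Psmb2, Psmb3 and Psmb4 had differences of 0.064, 0.013, 0.051 and -0.10. Of these, Psmb1 was slightly higher on both KO arrays (11.42 and 11.47 against 11.36 and 11.40) and Psmb4 slightly lower (12.51 and 12.54 against 12.58 and 12.68). The other tested probe for Psmb2 gave 0.12, with both KO arrays above both WT arrays.

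The counterparts of the catalytic subunits in the immunoproteasome, the form that interferon induces for antigen processing, were not members. Psmb8, which takes the place of Psmb5, was detected on no array, with signals of 113 and 100 in KO and 92.2 and 97.3 in WT. Psmb9, in place of Psmb6, was dim, at 5.27 and 5.43 in KO against 5.45 and 5.52 in WT (-0.13 ± 0.17, adjusted p = 0.920). Psmb10, in place of Psmb7, had 8.11 and 8.10 in KO against 7.85 and 8.62 in WT, so that the KO lines lay between the WT lines (-0.13 ± 0.27, adjusted p = 0.956). Without WT2 the difference was 0.25, and its other probe gave -0.37 with both KO arrays below both WT arrays.

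The ATPase ring of the base pulls the substrate into the core. Of 6 genes with probes 5 were measured, all with overlapping genotypes, and their median difference was 0.014. Psmc3 had 10.24 log2 units in KO1, 10.54 in KO2, 10.45 in WT1 and 10.65 in WT2, a difference of -0.16 ± 0.19 (adjusted p = 0.909). The KO lines were further apart than the genotypes. Psmc4 had 10.92 and 10.81 against 10.58 and 10.92 (0.11 ± 0.19, adjusted p = 0.947), with WT1 low. Psmc1, Psmc2 and Psmc5 were at -0.034, 0.041 and 0.014, close to 0 in each case.

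Psmd1 and Psmd2 are the large scaffold subunits of the base, and Psmd4 is a receptor for ubiquitin chains. Psmd2, the docking site for shuttle proteins, had 6.12 log2 units in KO1, 6.56 in KO2, 6.57 in WT1 and 6.71 in WT2. KO1 alone stood apart, since KO2 was next to WT1, and the difference was -0.30 ± 0.21 (adjusted p = 0.801). The other probe for Psmd2 gave -0.26. Psmd1 had 7.27 and 6.99 against 7.62 and 7.12, where line 2 was low in both genotypes (-0.24 ± 0.23, adjusted p = 0.867), and it was at 0.0043 without WT1. Psmd4 had 11.70 and 11.79 against 11.43 and 11.77 (0.15 ± 0.19, adjusted p = 0.923), with WT1 low and the other lines level.

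Within the regulatory particle, the most positive and the most negative difference were both in the lid. Psmd14, the deubiquitinase that removes the ubiquitin chain, had 7.86 log2 units in KO1, 7.98 in KO2, 8.18 in WT1 and 8.22 in WT2. The genotypes did not overlap (-0.28 ± 0.17, 95% interval -0.68 to 0.13, adjusted p = 0.775). Psmd11, a scaffold subunit, had 6.92 and 7.22 against 7.47 and 7.28, where KO2 and WT2 almost met (-0.31 ± 0.19, adjusted p = 0.775). Psmd8, another lid subunit, had 11.67 and 11.52 against 11.30 and 11.47, and Psmd12 had 9.94 and 9.91 against 9.71 and 9.82. Both KO arrays were above both WT arrays in these genes, with differences of 0.21 ± 0.18 (adjusted p = 0.852) and 0.17 ± 0.17 (adjusted p = 0.885). Psmd7, the partner of Psmd14 in its dimer, was at -0.036, and Psmd13 at 0.041. With median scaling, Psmd8, Psmd12 and Psmb1 had an unadjusted p under 0.05, a threshold that 23.8% of all genes then passed.

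**Figure D3:**
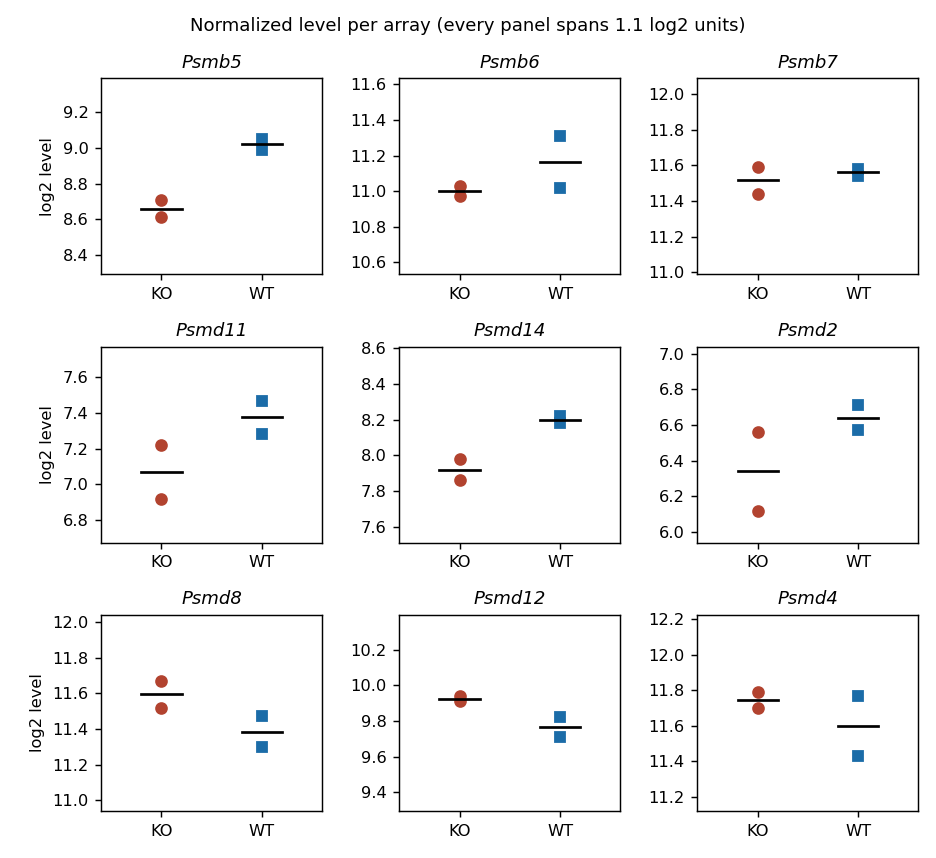
Normalized log2 level (y axis) on each KO array (circles) and each WT array (squares) for the catalytic subunit genes (top) and for some of the lid and base genes named in the text (middle and bottom); bars are means and every panel spans the same range. Psmb5 at 8.61 and 8.71 in KO against 8.99 and 9.05 in WT shows the clearest separation, and Psmb7 and Psmd4 overlap between genotypes.

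The assembly chaperones Psmd5, Psmd9 and Psmd10 hold parts of the ATPase ring until the base is complete and are not in the finished proteasome. All 3 had overlapping genotypes. Psmd5 had 7.64 and 7.59 log2 units in KO against 7.35 and 8.07 in WT (-0.094 ± 0.26, adjusted p = 0.967), so the KO lines lay between WT lines that were far apart. Without WT2 its difference was 0.27. Psmd9, close to background, had 5.29 and 5.51 against 4.96 and 5.66 (0.09 ± 0.26, adjusted p = 0.970), and its other probe gave -0.31. Psmd10, also called gankyrin, had 9.48 and 9.58 against 9.56 and 9.48, a difference of 0.0077 ± 0.17 (adjusted p = 0.994). Its 2 dimmer probes gave -0.24 and -0.17, both with the KO arrays below the WT arrays. The regulatory particle median was -0.01 with these 3 genes left out.

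Members measured by dim probes were mostly below 0 in KO. Of the 29 genes, 7 had a mean level under 9 log2 units: Psmb5, Psmd1, Psmd2, Psmd5, Psmd9, Psmd11 and Psmd14. Their median difference was -0.28, with 6 of 7 below 0, and in 4 of 7 both KO arrays were under both WT arrays. Of all 6234 genes under the same limit, 2977 were below 0, and 17.1% had both KO arrays under both WT arrays. The 22 brighter genes had a median of 0.01, with 12 above 0 and 10 below. Among all genes tested the brightness made no such split, with medians of 0.015 under and 0.012 over the same limit. Counted by probe, 10 of 12 dim and 14 of 27 brighter member probes were below 0. The median of the dim genes (6 with the strict filter), taken against the median of all genes, was between -0.35 and -0.16 under all alternatives. That range includes the settings with each array left out. The limit was set after the values were seen, and alternatives on the same arrays cannot test a split chosen that way. How bright a probe is does not give the abundance of its transcript.

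**Figure D4:**
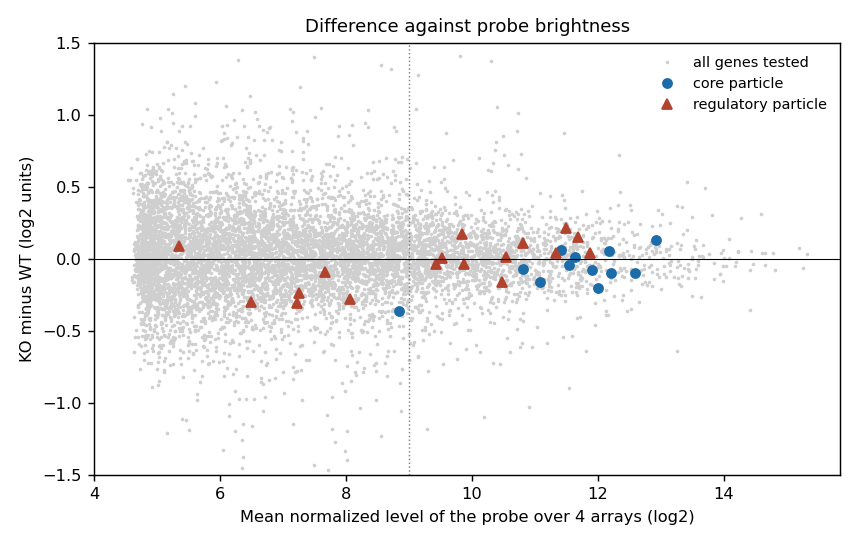
Difference between KO and WT (y axis, log2 units) against the mean normalized level of the probe over the 4 arrays (x axis, log2) for all 8047 genes tested (grey), core particle genes (circles) and regulatory particle genes (triangles); 14 genes lie beyond the y axis. Left of the dotted line at 9, 6 of 7 proteasome genes are below 0, and right of it 12 are above and 10 below.

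Of the 51 member probes 40 were detected on all 4 arrays and 11 were left out of the test, 1 of them detected on 1 array (a Psmd12 probe in KO1). No probe above background was found for 4 genes, the alpha ring genes Psma1 and Psma6, the ATPase Psmc6 and the lid gene Psmd6, so these have no difference here. Psmd3 had no probe under the rule, and Adrm1, a regulatory particle subunit outside the rule, had no named probe, so neither was measured. Signals of the 11 probes were 88.2 to 116 in KO1, 85.8 to 110 in KO2, 77.3 to 89.9 in WT1 and 84.0 to 97.2 in WT2, where the median undetected probe had 97.1, 94.6, 80.9 and 84.4. A probe at background does not show that the transcript is missing. In 5 genes (Psma3, Psmb2, Psmd5, Psmd11 and Psmd12) 1 or more probes were at background while another was detected on every array. For Psma3, the detected probe had signals of 4928 and 5860 in KO and 4155 and 4401 in WT, and the other 110 and 89.3 in KO and 89.9 and 89.2 in WT. Of 8 genes with several tested probes, the sign was shared in 4 and differed in 4 (Psmb7, Psmc5, Psmd9 and Psmd10). Psmc3ip, the member that is no subunit, had 7.19 and 7.18 in KO against 7.24 and 7.50 in WT (-0.18 ± 0.18, adjusted p = 0.880).

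In the signals as deposited, the members followed the brightness of the KO arrays. The ratio of KO to WT signal had a median of 1.32 over the 29 genes, with a range of 1.09 (Psmb5) to 1.58, and a median of 1.28 over all genes tested. For Psmb5 the deposited signals were 539 and 570 in KO and 498 and 517 in WT, so that it was higher in KO before the arrays were brought to 1 distribution and lower after.

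Genes that act with the proteasome gave a like picture, with 0 past the test in limma. Of 22 such genes tested, 8 were above 0 and 14 below, where 52.4% and 47.6% of all genes were. An unadjusted p under 0.05 was reached by 8.13% of all genes, and here by 1 of 22. This was Ube3c, a ubiquitin ligase that lengthens the chains on substrates at the proteasome, with 9.10 and 9.0 log2 units in KO against 8.35 and 8.66 in WT. Both KO lines were above both WT lines (0.55 ± 0.19, unadjusted p = 0.0234, adjusted p = 0.567), and leaving out single arrays gave 0.39 to 0.70. Among the activators, Psme1, a subunit of the interferon-induced cap, had 9.21 and 9.41 against 9.52 and 9.94 (-0.42 ± 0.21, adjusted p = 0.691), and its partner Psme2 was at -0.21. WT2 was the highest line for Psme1. Sem1, a small lid subunit, was at -0.12 ± 0.18 (adjusted p = 0.940).

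Of the factors that build the core particle, Psmg3 had the smallest p-value (-0.21 ± 0.22, adjusted p = 0.883), and the maturation factor Pomp was at -0.14. Above 0 were 4 of 7 proteasome-bound enzymes and shuttles, 1 of 4 activators and 1 of 4 core assembly factors. In the lists of Vcp and of the Nfe2l1 axis, 1 of 3 genes each was above 0. Over all genes that share was 52.4%. Vcp, the segregase that extracts proteins for degradation, was at -0.012, and its cofactor Nploc4 had 7.94 and 7.83 in KO against 7.59 and 7.65 in WT (0.26 ± 0.17, adjusted p = 0.781). Nfe2l1 itself had 10.56 log2 units in KO1, 10.39 in KO2, 10.34 in WT1 and 10.08 in WT2. Both KO lines were slightly above both WT lines (0.26 ± 0.19, adjusted p = 0.803). Of the member genes with the Nfe2l1 core motif in the promoter, 4 were measured, with differences of -0.36 (Psmb5), -0.16 (Psmb6), 0.09 (Psmd9) and 0.17 (Psmd12). Their median was -0.037, and that of the 20 measured members with a promoter sequence and no match was -0.054.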

How the data were processed

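The authors hybridized RNA from each of 4 MEF lines to 1 array and summarised the beads in GenomeStudio. The deposited signal intensity per probe has no background subtraction or scaling, and the deposited detection p-value compares each probe with negative controls. A second table of intensity values, in which the authors had scaled each array by 1 factor, served as an alternative.

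Signals were corrected by normexp with the detection p-values, given an offset of 16, quantile normalized and taken to log2 (neqc, limma 3.58.1, R 4.3.3). To be tested, a probe needed 2 or more arrays with a detection p below 0.05 (11552 probes, 8047 named genes). Where a gene had several tested probes, the one with the highest mean stood for it. That choice was made anew in each alternative, so the probe of a gene could change. KO and WT were compared with lmFit and eBayes (two-sided tests; residual degrees of freedom 2, prior 4.86), with Benjamini-Hochberg adjustment over all probes tested and a threshold of 0.05. The pipeline was tested on simulated data. Each difference is KO minus WT, on the log2 scale, and has the model's SE and 95% interval. The number of arrays limits the precision. Each p-value sets a difference against the spread between lines of the same genotype, moderated by the spread of all probes.

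Gene symbols came from the platform annotation, updated through gene identifiers. Probe sequences were not used here, so cross-hybridization to near-identical copies was not checked. Named were the catalytic subunits, the 2 members of smallest p-value per ring, base, lid and chaperones, the 3 most positive and 3 most negative differences, members without a tested probe or with probes of opposite sign, Psmb8, Psmb9, Psmb10, and the gene of smallest p-value in each list of associated genes. Other members appear only with their differences or as probe examples. Lists of associated genes were immunoproteasome subunits, activators, core assembly factors, proteasome-bound enzymes and shuttles, Vcp with its cofactors, the Nfe2l1 axis, ubiquitin genes (0 with a named probe) and cell type markers. Endothelial markers were detected only for Emcn (1 of 6), and epithelial markers for 2 of 5. Members and lists were chosen with earlier results of these data known.

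Alternatives were no background correction, an offset of 50, median scaling, the authors' scaled values, a filter on all 4 arrays (detection p below 0.01) or no filter, a variance trend with robust eBayes, the mean over a gene's probes, a replicate block by line number, and leaving out each array. Leaving out the chaperones was added after seeing the data.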

Additional observations from a re-analysis of the deposited data

How the results depend on the processing

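No proteasome gene passed the adjusted threshold under any alternative (0 of 28 to 33 genes tested), and the smallest adjusted p of a member ranged from 0.182 with median scaling to 1.0 without KO1 or KO2. At an unadjusted p under 0.05 the count of members went from 0 to 1 (no background correction, offset of 50, no detection filter, variance trend), 2 (authors' values) and 3 (median scaling). The median difference was -0.075 for the core and 0.0077 for the regulatory particle with the line number as a replicate block, as without it. The numbers did not pair the lines (the correlation of their deviations was -0.0365), and the block changed no call of a member. Over all genes, 1 passed the test, but 0 with the strict filter, 2 with the block, 20 with the variance trend and 31 without WT1. With median scaling the median of all genes stood at 0.28. Differences of genes and particles under it are given here relative to that shift, and the medians were -0.027 and 0.019. The p-values under median scaling, and the counts of 26 genes above and 3 below 0, are from the fit with the shift still in it. Leaving out single arrays gave a range of -0.16 to 0.0074 for the core and -0.08 to 0.026 for the regulatory particle, and both moved by more than the spread between arrays without WT1. The probe that stood for a gene was chosen anew from the arrays kept, and it changed for Psmc5 without KO1. These ranges, and those of genes with several probes, can thus hold changes of probe as well as of arrays.

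The sign of small differences was not stable. Psmb7 was at 0.0034 with median scaling and 0.027 in the authors' values, and Psmd9 at -0.021 and -0.077. With the mean over probes, Psmc5 was at -0.011, Psmd10 at -0.13 and Psmd9 at -0.11. With single arrays left out, ranges crossed 0 for Psma2 (-0.0051 to 0.26), Psmb7 (-0.12 to 0.029), Psmb10 (-0.52 to 0.25), Psmc4 (-0.056 to 0.28), Psmc5 (-0.08 to 0.11), Psmd1 (-0.49 to 0.0043), Psmd4 (-0.024 to 0.32), Psmd5 (-0.45 to 0.27), Psmd9 (-0.26 to 0.44), Psmd10 (-0.042 to 0.057), Psmg3 (-0.45 to 0.027) and Sem1 (-0.25 to 0.016). The cause was not tested. Where 1 array of a genotype is left, its spread is taken from the other pair. Psmd9 and Psmb9 lie close to background, which limits what their values can show.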
